A study of Mus musculus with 18 samples.

Results

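The comparison described here is that of mouse embryonic fibroblasts (MEFs) 12 h after their medium was exchanged from Rcm to Scm (R-Scm 12 h) with MEFs kept in Rcm, whose titles place them at 0 h. Its members are 6 RNA-seq libraries of the 18 in the series, 3 of each group, which were chosen by the titles that the submitters gave them. Rcm is complete medium made with a fetal bovine serum under which the cells resisted ferroptosis (R-FBS), and Scm is the same kind of medium made with a serum under which they were sensitive to it (S-FBS). All cells were labelled as wild type and as the cell line MEFs, which the study obtained from a cell repository (ATCC), so the libraries show how this line responded and not how embryos differ. The other 4 groups of 3 libraries were cells kept in Scm, cells that had left Scm for Rcm 12 h before (S-Rcm 12 h) or a day before (S-Rcm 24 h), and cells collected a day after the same exchange as that studied here (R-Scm 24 h). The comparison asks which transcripts change within 12 h when cells leave the medium of the resistance serum. The labels name no group in which used Rcm was replaced with fresh Rcm, and the control is of 0 h and not of 12 h. The exchange of serum, the renewal of the medium and the hours in culture therefore cannot be told apart in it.

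Mammalian cells make cholesterol from acetyl-CoA through the mevalonate pathway, squalene and a series of demethylated sterols. The genes of this route and genes of sterol uptake are transcribed under the factor SREBP2 (encoded by Srebf2), whose precursor is held in the endoplasmic reticulum by SCAP and the INSIG proteins while membrane sterol is plentiful, and SREBP1 (Srebf1) acts mainly on genes of fatty acid synthesis and desaturation. Sterol intermediates, monounsaturated and polyunsaturated fatty acids, glutathione and selenoproteins all bear on ferroptosis, a form of cell death driven by iron-dependent peroxidation of membrane lipids. Fibroblasts also answer a change of serum with genes of growth factor, BMP and TGF-beta signalling, with secreted proteases and chemokines, and with a reset of the circadian clock.

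Total counts ran from 15037323 to 19787163 in the libraries of Rcm and from 16502175 to 19240246 in those of R-Scm 12 h, and from 14534906 to 20313715 over all 18. Values are given in CPM (counts scaled to the same library total) as replicates 1, 2 and 3, and are not corrected for transcript length, so levels are compared between groups of 1 gene only. All 8 fibroblast markers were above 1 CPM in each of the 6 libraries, and their summed level was 10422 to 10720 CPM in Rcm and 7913 to 8268 CPM in R-Scm 12 h. Of the 8, Thy1 had a positive and the others a negative log2 fold change. Of the 5 endothelial and 5 skeletal muscle markers, 0 reached 1 CPM in all 6 libraries, and 4 of 5 neural markers did, with sums of 108 to 128 CPM in Rcm and 126 to 144 CPM in R-Scm 12 h. In bulk RNA, fewer cells of a kind and less RNA per cell cannot be told apart. Replicate 3 stood apart in both groups: counts differed by 32.5 and 26.2 times sampling noise (chi-square per degree of freedom) between R-Scm 12 h replicate 3 and the other two R-Scm 12 h libraries, against 18.2 between those, and by 37.9 and 36.7 between Rcm replicate 3 and the other two Rcm libraries, against 11. The share of counts on mitochondrial genes was 1.96% in Rcm replicate 3, 3.13% and 3.28% in the other Rcm libraries and 2.64% to 3.41% in R-Scm 12 h. Its part in the results was not tested, and counts of DEGs are given below also without replicate 3 of R-Scm 12 h where this moved them by over 1.5 times. The labels do not say whether replicates were separate cultures, so the p-values measure the spread between these libraries, which may be technical.

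Of 15381 genes tested, 421 were differentially expressed genes (DEGs) between R-Scm 12 h and Rcm, which is 2.74% of them. The call asked for a log2 fold change beyond 0.58 in either direction together with an adjusted p (Benjamini-Hochberg) below 0.05 in the quasi-likelihood test of edgeR. In R-Scm 12 h, 233 genes were higher (1.51%) and 188 were lower (1.22%). The libraries of the groups did not overlap for 23.4% of all genes tested, and the median log2 fold change over all genes was -0.01. An unadjusted p under 0.05 by edgeR was found for 2706 of the 15381 genes, which is the background for such counts in the lists below. Without R-Scm 12 h replicate 3, 275 DEGs were called, 138 higher and 137 lower, and with the 6 libraries fitted alone 237 were called, 119 higher and 118 lower.

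Genes of sterol synthesis fell nearly throughout. Of 19 enzymes between acetyl-CoA and cholesterol in 3 lists, 17 fell and 0 rose, where 1.22% of all genes were lower DEGs, and in all 19 the libraries of the groups did not overlap. The median log2 fold change was -1.33 over the 19 genes and -0.01 over all genes. The count stayed between 16 and 18 under the 16 alternatives, and was 16 without R-Scm 12 h replicate 3. The plot of sterol synthesis genes by library shows the fall as a share of each gene's Rcm mean.

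**Figure D1:**
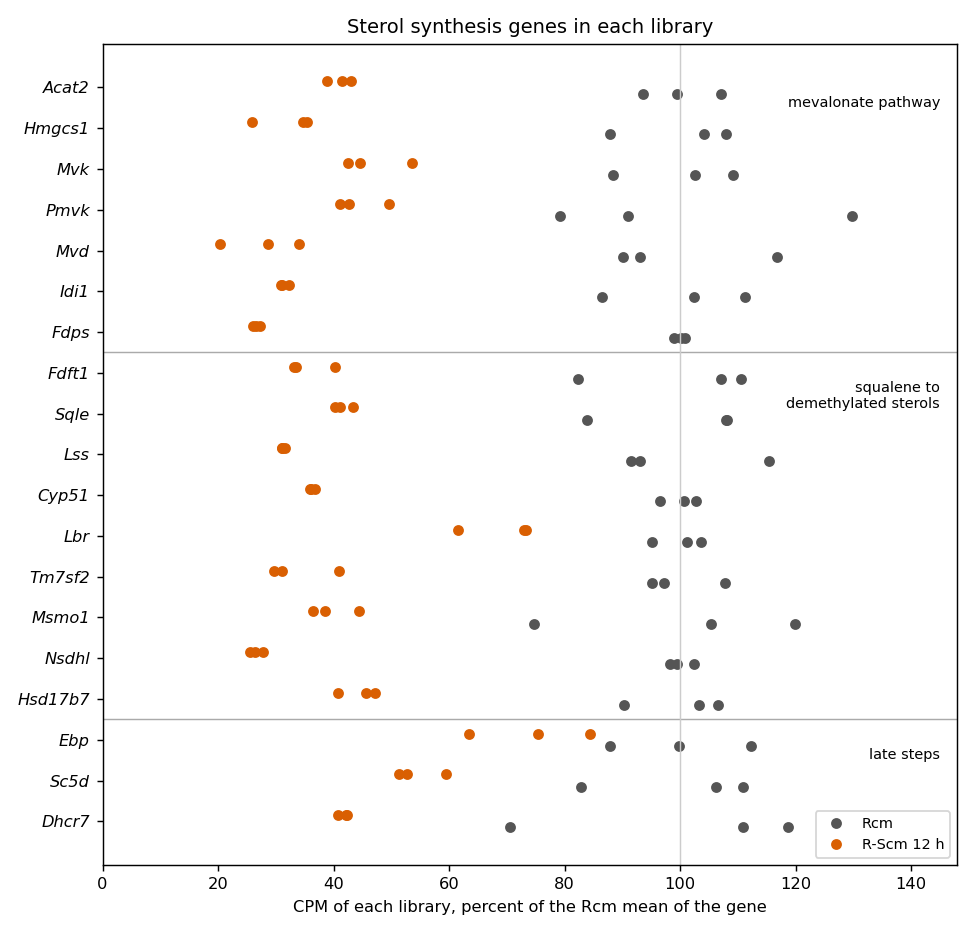
Level of each of the 19 sterol synthesis genes in the 3 libraries of Rcm (grey) and the 3 of R-Scm 12 h (orange), as a percent of the gene's mean CPM in Rcm, with each point 1 library. In no gene do the 2 groups overlap, and Ebp and Lbr lie nearest to their Rcm levels.

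All 7 listed genes of the mevalonate pathway fell (median log2 fold change -1.65). Fdps (ENSMUSG00000059743, chromosome 3, 89093588 to 89101959 in GRCm38) encodes farnesyl diphosphate synthase, which joins isoprenoid units into the longer precursor of squalene and of prenyl groups. It stood at 384, 392 and 389 CPM in Rcm and at 106, 103 and 101 CPM in R-Scm 12 h. The libraries of each group lay close together, and the level was 3.76-fold lower (log2 fold change -1.91 ± 0.16 (SE), adjusted p = 5.08e-06). Hmgcs1 (ENSMUSG00000093930, chromosome 13, 119690379 to 119708260), whose product makes HMG-CoA, was at 514, 533 and 434 CPM in Rcm and 171, 175 and 127 CPM in R-Scm 12 h, which is 3.13-fold lower (log2 fold change -1.65 ± 0.22 (SE), adjusted p = 0.000404). Mvd, the decarboxylase that makes isopentenyl diphosphate, had its lowest level in R-Scm 12 h replicate 3, with 52.4, 54.2 and 67.9 CPM in Rcm and 19.8, 16.6 and 11.8 CPM in R-Scm 12 h (log2 fold change -1.85 ± 0.22 (SE), adjusted p = 0.000127). Idi1, the isomerase of the next step, was at 249, 271 and 210 CPM in Rcm and 75.3, 78.5 and 75.7 CPM after the exchange (log2 fold change -1.67 ± 0.18 (SE), adjusted p = 4.66e-05). Both kinases of the pathway, Mvk and Pmvk, and the thiolase Acat2 fell by 1.09, 1.17 and 1.28 on the log2 scale. Acat2 has a copy of at least 95% identity over 150 bases, Acat3, so reads of the pair may have been split between them.

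Between squalene and the demethylated sterols, 8 of 9 genes fell (median log2 fold change -1.47). Nsdhl (ENSMUSG00000031349, chromosome X, 72918557 to 72958514), the dehydrogenase that removes carboxyl groups of sterols, had the largest fall of this list. Its level was 118, 123 and 119 CPM in Rcm and 31.7, 33.2 and 30.6 CPM in R-Scm 12 h, 3.76-fold lower (log2 fold change -1.91 ± 0.15 (SE), adjusted p = 5.08e-06). Lss, the cyclase that forms lanosterol, was at 234, 186 and 189 CPM in Rcm and 64.2, 63.1 and 63.2 CPM in R-Scm 12 h (log2 fold change -1.68 ± 0.21 (SE), adjusted p = 0.00027). Cyp51, the lanosterol demethylase, went from 307, 314 and 295 CPM to 110, 112 and 109 CPM (log2 fold change -1.47 ± 0.15 (SE), adjusted p = 3.95e-05). Sqle, the epoxidase that is another control point of the route, went from 399, 399 and 310 CPM to 149, 152 and 160 CPM (log2 fold change -1.27 ± 0.15 (SE), adjusted p = 0.000109). The spread within each group was small beside these differences. Fdft1, Tm7sf2, Msmo1 and Hsd17b7 fell by 1.49, 1.56, 1.33 and 1.17 on the log2 scale. Tm7sf2 shares exon sequence with Vps51 on the same strand and its value is uncertain for that reason. Lbr, which has the same reductase activity as Tm7sf2 and also anchors chromatin at the nuclear envelope, did not pass the fold threshold, at 212, 225 and 231 CPM in Rcm and 163, 162 and 137 CPM in R-Scm 12 h (log2 fold change -0.53 ± 0.09 (SE), adjusted p = 0.00197).

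Among 3 genes of the late steps, Sc5d and Dhcr7 fell and Ebp was not a DEG (median log2 fold change -0.88). Sc5d makes dehydrocholesterol, a sterol that can trap lipid radicals, and Dhcr7 reduces it to cholesterol. Dhcr7 was at 32.7, 19.4 and 30.5 CPM in Rcm and 11.6, 11.2 and 11.7 CPM in R-Scm 12 h (log2 fold change -1.26 ± 0.30 (SE), adjusted p = 0.0269). Its call was lost when any of 5 of the 6 libraries was left out, the exception being Rcm replicate 2. Sc5d went from 169, 176 and 132 CPM to 81.7, 83.8 and 94.6 CPM (log2 fold change -0.88 ± 0.15 (SE), adjusted p = 0.00304). The gene that makes dehydrocholesterol and the gene that uses it were thus both lower. Ebp, the isomerase before them, was at 75.9, 86.3 and 97.1 CPM in Rcm and 73.0, 65.1 and 54.9 CPM in R-Scm 12 h (log2 fold change -0.43 ± 0.16 (SE), adjusted p = 0.164).

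Near-identical copies of these genes were among the largest falls, and their reads cannot be told apart from those of the enzymes. Gm5873 and Gm7979 are processed pseudogenes with stretches of at least 95% identity to Fdps, and Gm37784 is one of Insig1. Gm5873 was at 33.1, 35.9 and 27.5 CPM in Rcm and 6.07, 7.10 and 8.09 CPM in R-Scm 12 h (log2 fold change -2.18 ± 0.21 (SE), adjusted p = 3.35e-05). Gm7979 and Gm37784 fell by 1.93 and 1.99 on the log2 scale. Further copies of this identity include Gm3571 of Fdps, Gm13502 of Idi1 and Gm6781 of Fdft1. Hmgcs1, Msmo1 and Dhcr7 also share such stretches with other genes. The levels of these enzymes are uncertain to the extent that shared reads were split. Gm48342 fell by 1.98 (SE 0.50, adjusted p = 0.0335 by edgeR), and its call was lost when any 1 of the 6 libraries was left out. It lies antisense to exons of Hmgcs1, so that without stranded counting its reads and those of Hmgcs1 cannot be separated either.

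Promoter windows are shown for Hmgcs1 and Idi1 of the mevalonate pathway, Nsdhl of the later sterol steps and Insig1 of the SREBP machinery, 4 genes that fell. They are examples chosen after their values and matches were seen, Hmgcs1 because its window held an SRE match. Each window is the 250 bases before the RefSeq start of the gene in GRCm38.p6, written 5′ to 3′ on the strand of the gene. Capitals mark matches on either strand to TCACNCCAC (a core of the sterol regulatory element, SRE), CCAAT (the NF-Y box) and GGGCGG (the Sp1 box), the last 2 being boxes of factors that bind beside SREBP at such genes.
Hmgcs1 chr13:119690101-119690350 (+ strand): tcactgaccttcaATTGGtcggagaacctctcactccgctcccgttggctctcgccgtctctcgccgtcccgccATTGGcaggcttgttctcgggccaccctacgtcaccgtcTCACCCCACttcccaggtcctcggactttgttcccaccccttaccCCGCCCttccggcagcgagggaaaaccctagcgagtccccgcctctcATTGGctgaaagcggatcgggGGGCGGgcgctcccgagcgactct
Idi1 chr13:8885356-8885605 (+ strand): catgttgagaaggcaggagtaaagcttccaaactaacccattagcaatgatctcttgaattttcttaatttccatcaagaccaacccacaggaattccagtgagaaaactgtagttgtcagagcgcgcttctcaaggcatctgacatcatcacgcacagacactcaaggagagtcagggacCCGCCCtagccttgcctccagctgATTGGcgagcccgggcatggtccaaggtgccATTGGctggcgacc
Nsdhl chrX:72918271-72918520 (+ strand): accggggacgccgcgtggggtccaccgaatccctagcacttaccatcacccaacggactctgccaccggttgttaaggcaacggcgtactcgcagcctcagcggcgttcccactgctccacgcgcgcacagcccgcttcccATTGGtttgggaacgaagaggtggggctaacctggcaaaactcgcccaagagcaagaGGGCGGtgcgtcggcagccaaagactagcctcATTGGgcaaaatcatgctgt
Insig1 chr5:28071162-28071411 (+ strand): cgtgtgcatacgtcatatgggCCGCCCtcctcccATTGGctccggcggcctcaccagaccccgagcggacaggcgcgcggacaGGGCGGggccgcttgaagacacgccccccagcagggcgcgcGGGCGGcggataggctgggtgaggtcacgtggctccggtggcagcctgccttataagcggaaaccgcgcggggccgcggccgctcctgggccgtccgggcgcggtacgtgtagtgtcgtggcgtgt
The reference table held promoters of 18 of the searched genes, 16 of them of the 19 sterol enzymes and the others of Insig1 and Tmem97. An SRE core as spelled was found in 1 of the 18, at 137 bases before the start of Hmgcs1, and in 1.22% of 27025 genes with a promoter (1.24% of the 10217 of them that were tested). A CCAAT box was found in 17 of the 18, against 37.5% of all genes and 41.1% of the genes tested. GGGCGG was found in 17 of the 18 as well, against 35.4% and 64.3%. A match describes the letters of the window and is not evidence of binding, and these letters cover only part of the forms that an SRE can take.

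Of 9 genes for the SREBP factors and their processing, Insig1 and Srebf2 fell and 0 rose. Insig1 (ENSMUSG00000045294, chromosome 5, 28071363 to 28078662) encodes the sterol-sensing anchor of SCAP and is itself transcribed under SREBP. It was at 171, 174 and 181 CPM in Rcm and 46.1, 50.1 and 43.2 CPM in R-Scm 12 h, 3.77-fold lower (log2 fold change -1.91 ± 0.19 (SE), adjusted p = 3.76e-05). Srebf2 went from 485, 486 and 526 CPM to 306, 308 and 240 CPM (log2 fold change -0.81 ± 0.14 (SE), adjusted p = 0.00307). Levels of Srebf1 overlapped between the groups, with 75.0, 76.5 and 95.6 CPM in Rcm and 80.9, 74.3 and 69.8 CPM in R-Scm 12 h (log2 fold change -0.14 ± 0.10 (SE), adjusted p = 0.558). Scap, Insig2, the proteases Mbtps1 and Mbtps2 and the ubiquitin ligases Rnf139 and Rnf145 had log2 fold changes between -0.21 and -0.05, and none was a DEG.

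In sterol uptake and trafficking, 1 of 10 listed genes fell and 0 rose (median log2 fold change -0.17). The gene that fell was Stard4, a soluble carrier of sterol between membranes, which went from 196, 195 and 167 CPM to 87.1, 96.2 and 90.1 CPM (log2 fold change -1.03 ± 0.18 (SE), adjusted p = 0.00337). The list held 2 lower DEGs without R-Scm 12 h replicate 3 or Rcm replicate 2. Of 5 tested targets of the oxysterol receptor LXR, none was a DEG by edgeR or DESeq2 and 1 had an unadjusted p under 0.05, with log2 fold changes between -0.45 and 0.63.

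Genes of fatty acid synthesis and desaturation also fell, in part. Of 8 genes of fatty acid synthesis, 5 fell and 1 rose (median log2 fold change -0.69). Acly, which makes cytosolic acetyl-CoA from citrate, was at 565, 550 and 611 CPM in Rcm and 315, 314 and 322 CPM in R-Scm 12 h (log2 fold change -0.86 ± 0.09 (SE), adjusted p = 3.43e-05). Fasn, the fatty acid synthase, went from 784, 772 and 811 CPM to 467, 514 and 426 CPM (log2 fold change -0.75 ± 0.11 (SE), adjusted p = 0.00122). Slc25a1, Acss2 and Acaca fell by 0.92, 0.80 and 0.64 on the log2 scale. The gene that rose was Mid1ip1, whose product promotes the assembly of acetyl-CoA carboxylase, from 25.6, 17.4 and 20.4 CPM to 46.5, 44.0 and 36.8 CPM (log2 fold change 1.0 ± 0.21 (SE), adjusted p = 0.0101). The list held 3 DEGs, 1 higher and 2 lower, without R-Scm 12 h replicate 3, and the same counts without Rcm replicate 3.

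Of 10 desaturases and elongases, 4 fell and 0 rose (median log2 fold change -0.65). Scd1, which puts the double bond into monounsaturated fatty acids, was at 439, 444 and 409 CPM in Rcm and 200, 222 and 221 CPM in R-Scm 12 h, 2.01-fold lower (log2 fold change -1.01 ± 0.19 (SE), adjusted p = 0.00469). Its near copy Scd2 varied widely, at 1467, 1438 and 1555 CPM in Rcm and 601, 605 and 134 CPM in R-Scm 12 h, and was not a DEG (log2 fold change -1.73 ± 0.71 (SE), adjusted p = 0.205); reads shared by the pair may have been split. The desaturases of polyunsaturated fatty acids fell together: Fads2 went from 315, 313 and 330 CPM to 139, 144 and 150 CPM (log2 fold change -1.15 ± 0.17 (SE), adjusted p = 0.000815), and Fads1 fell by 0.93 on the log2 scale. Elovl6 fell by 1.16. In acyl-CoA and glycerolipid synthesis, 2 of 12 genes fell, Lpin1 and Acsl3. Lpin1, a phosphatidate phosphatase, was at 53.3, 49.4 and 52.2 CPM in Rcm and 20.1, 19.8 and 19.1 CPM in R-Scm 12 h (log2 fold change -1.39 ± 0.24 (SE), adjusted p = 0.00344). Acsl3, which activates monounsaturated fatty acids among others, fell by 0.89 on the log2 scale, whereas Acsl4, which prefers polyunsaturated ones, was not a DEG (log2 fold change 0.02 ± 0.13 (SE), adjusted p = 0.951).

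Among 16 tested targets of PPARs and genes of fatty acid oxidation, 3 fell and 0 rose, and 15 of the 16 log2 fold changes were negative (median -0.33). Cpt1a, the carnitine transferase that admits fatty acids to mitochondria, was at 137, 134 and 137 CPM in Rcm and 72.4, 80.7 and 69.0 CPM in R-Scm 12 h (log2 fold change -0.88 ± 0.14 (SE), adjusted p = 0.00223). Angptl4, a secreted inhibitor of lipoprotein lipase, went from 30.8, 27.0 and 29.2 CPM to 15.8, 13.3 and 15.7 CPM (log2 fold change -0.96 ± 0.18 (SE), adjusted p = 0.00485). Ucp2, a mitochondrial carrier, fell by 0.81 on the log2 scale. Genes for making fatty acids and genes for burning them were both among those that fell.

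Of 26 tested regulators of ferroptosis, 1 rose and 0 fell. The list held 2 higher and 1 lower DEGs without Rcm replicate 3 or R-Scm 12 h replicate 2, 1 of each without Rcm replicate 1, and 2 higher ones without R-Scm 12 h replicate 1. The gene that rose was Tfrc, the transferrin receptor, from 247, 228 and 202 CPM to 352, 347 and 428 CPM (log2 fold change 0.73 ± 0.13 (SE), adjusted p = 0.0044). Gpx4, the peroxidase that reduces lipid hydroperoxides, was at 128, 129 and 125 CPM in Rcm and 113, 100 and 107 CPM in R-Scm 12 h, without overlap but below both thresholds (log2 fold change -0.25 ± 0.08 (SE), adjusted p = 0.0909). Slc7a11, the cystine transporter, was at 50.9, 53.8 and 17.5 CPM in Rcm and 12.8, 19.0 and 22.7 CPM in R-Scm 12 h, and the groups overlapped through Rcm replicate 3 (log2 fold change -1.16 ± 0.40 (SE), adjusted p = 0.126). Leaving that library out gave Slc7a11 a log2 fold change of -1.52 by edgeR (adjusted p = 0.0268), and DESeq2 on all 18 libraries gave an adjusted p of 0.0291. Its adjusted p over the 16 alternatives ran from 0.0268 to 0.331. Acsl4 and Aifm2, which make peroxidizable phospholipids and regenerate coenzyme Q, were not DEGs, and Apoh had at most 7 counts in any of the 18 libraries and was not tested.

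Other stress programs changed in few members. Of 19 selenoproteins, Selenow fell, from 145, 166 and 178 CPM to 72.5, 69.7 and 80.5 CPM (log2 fold change -1.14 ± 0.17 (SE), adjusted p = 0.00102); it is a small redox protein that is among the first to be lost when selenium is short. None of 20 NRF2 targets was a DEG by edgeR, 8 had an unadjusted p under 0.05, and 1 was a lower DEG by DESeq2. By edgeR without Rcm replicate 3 there was 1 lower DEG. Of 23 ATF4 targets, Ddit4, an inhibitor of mTORC1, fell, from 18.3, 21.8 and 27.7 CPM to 14.6, 12.7 and 12.9 CPM (log2 fold change -0.76 ± 0.18 (SE), adjusted p = 0.0218). Its call was lost in 6 of 16 alternatives, and without R-Scm 12 h replicate 3 the list held 4 lower DEGs. Of 13 genes of the unfolded protein response, Hspa5, the main chaperone of the endoplasmic reticulum, rose from 437, 429 and 393 CPM to 829, 837 and 644 CPM (log2 fold change 0.88 ± 0.16 (SE), adjusted p = 0.00437).

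Secreted proteases and chemokines held several of the largest rises. Of 17 metalloproteinases and inhibitors, 4 rose and 1 fell, and of 16 chemokines and acute-phase genes 5 rose and 0 fell (medians 0.13 and 0.99). Mmp3 (ENSMUSG00000043613, chromosome 9, 7445822 to 7455975), stromelysin, was at 163, 178 and 153 CPM in Rcm and 864, 874 and 1488 CPM in R-Scm 12 h, 6.53-fold higher (log2 fold change 2.71 ± 0.35 (SE), adjusted p = 0.000532). Mmp13, a collagenase, went from 8.86, 9.38 and 6.76 CPM to 55.9, 60.7 and 90.4 CPM (log2 fold change 3.05 ± 0.49 (SE), adjusted p = 0.00266). Mmp10, another stromelysin, went from 7.05, 6.19 and 7.47 CPM to 35.6, 38.6 and 66.8 CPM (log2 fold change 2.76 ± 0.49 (SE), adjusted p = 0.00452). All 3 were highest in R-Scm 12 h replicate 3, and the other libraries of that group were also above every Rcm library. Without replicate 3 the log2 fold change of Mmp3 was 2.40. Timp1, an inhibitor of these proteases, rose from 110, 113 and 142 CPM to 233, 207 and 285 CPM (log2 fold change 0.99 ± 0.14 (SE), adjusted p = 0.000572), and Adamts1 fell by 0.72 on the log2 scale.

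Ccl7, which attracts monocytes, had the smallest adjusted p of the list of chemokines and acute-phase genes. It was at 53.8, 55.0 and 49.2 CPM in Rcm and 97.1, 109 and 163 CPM in R-Scm 12 h (log2 fold change 1.22 ± 0.16 (SE), adjusted p = 0.000431). Ccl2, of the same cluster on chromosome 11, went from 112, 130 and 138 CPM to 205, 208 and 356 CPM (log2 fold change 1.02 ± 0.22 (SE), adjusted p = 0.0124). Cxcl12, the ligand of CXCR4, went from 66.2, 63.5 and 69.3 CPM to 112, 110 and 228 CPM (log2 fold change 1.18 ± 0.20 (SE), adjusted p = 0.00321). Replicate 3 held the highest value of each. Neutrophil-attracting chemokines of chromosome 5 rose as well: Cxcl1 from 7.55, 8.52 and 9.25 CPM to 13.6, 14.3 and 30.0 CPM (log2 fold change 1.19 ± 0.25 (SE), adjusted p = 0.01), and Ppbp, which is outside the list, from 2.43, 2.99 and 1.63 CPM to 11.7, 9.42 and 51.3 CPM (log2 fold change 3.37 ± 0.54 (SE), adjusted p = 0.00244). Cxcl5 was near the limit of detection in Rcm, with 0.624, 0 and 0.305 CPM, and at 1.37, 1.44 and 3.50 CPM in R-Scm 12 h (log2 fold change 2.71 ± 0.61 (SE), adjusted p = 0.0168). Without R-Scm 12 h replicate 3, Ppbp had a log2 fold change of 2.17, the chemokine list held 3 higher DEGs, and the calls of Ccl2 and Cxcl5 were lost. It also held 3 without Rcm replicate 1. Fitted on the 6 libraries alone, the list held 1 higher DEG and the call of Ppbp was lost. The 6 leukocyte markers summed to 2.39 to 3.66 CPM in Rcm and 3.67 to 5.21 CPM in R-Scm 12 h, 1 of them above 1 CPM in every library, Cd68, while Adgre1 and Cd3e were at 0 counts in all 6 libraries. Their part in the chemokine result was not tested.

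**Figure D2:**
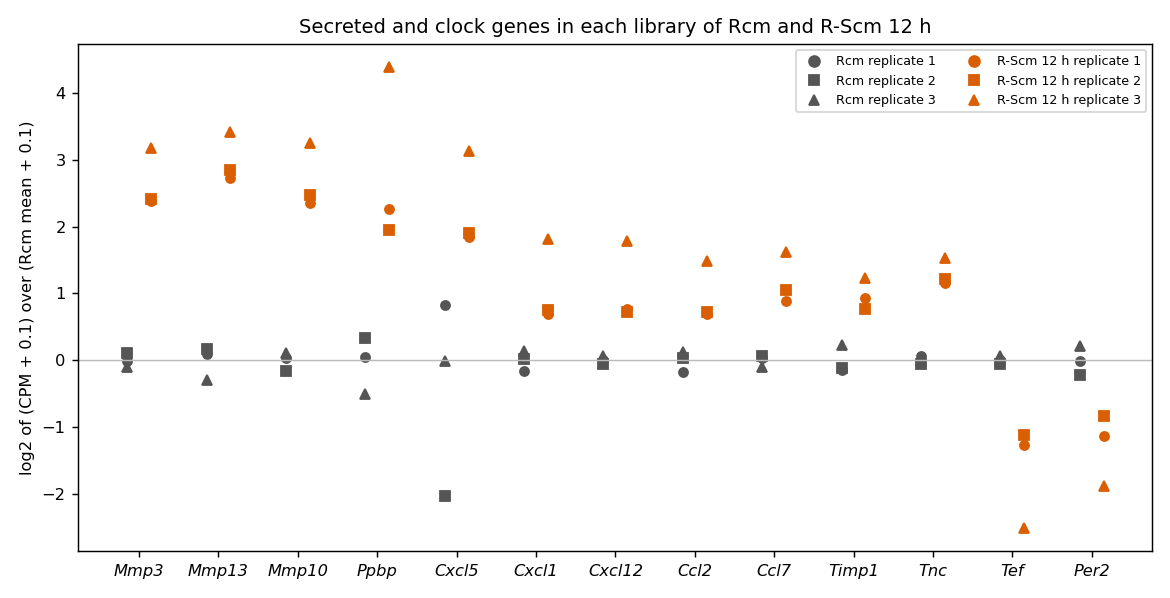
Secreted, matrix and clock genes in each library of Rcm (grey) and R-Scm 12 h (orange), as log2 of CPM plus 0.1 over the Rcm mean plus 0.1, with the symbol shape giving the replicate. Replicate 3 of R-Scm 12 h (triangles) is the farthest from Rcm in each of these 13 genes, and the other R-Scm 12 h libraries lie on the same side of Rcm.

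Readouts of BMP and TGF-beta signalling rose in 8 of 15 genes and fell in 0 (median log2 fold change 0.74). Id4 (ENSMUSG00000021379, chromosome 13, 48261228 to 48266026), one of the inhibitor-of-DNA-binding factors that BMPs induce, had the smallest adjusted p of the list. It was at 9.85, 10.8 and 7.77 CPM in Rcm and 28.4, 27.6 and 28.0 CPM in R-Scm 12 h, 2.95-fold higher (log2 fold change 1.56 ± 0.14 (SE), adjusted p = 1.9e-05). Id2 went from 49.7, 52.1 and 45.8 CPM to 86.8, 93.8 and 66 CPM (log2 fold change 0.74 ± 0.13 (SE), adjusted p = 0.00319). Atoh8, a helix-loop-helix factor, went from 12.3, 12.0 and 16.0 CPM to 34.9, 31.0 and 28.0 CPM (log2 fold change 1.22 ± 0.15 (SE), adjusted p = 0.00017). Ltbp2, a matrix protein of the family that binds latent TGF-beta, went from 45.4, 46.6 and 49.7 CPM to 91.5, 105 and 150 CPM (log2 fold change 1.29 ± 0.16 (SE), adjusted p = 0.000214). In Id4 and Atoh8 the 3 libraries of R-Scm 12 h lay close together, while Ltbp2 was highest in replicate 3. Id3, Hey1, Smad7 and Smad9 were the other DEGs, with log2 fold changes between 0.89 and 1.46. The libraries of Id1 overlapped (log2 fold change 0.72 ± 0.23 (SE), adjusted p = 0.088). The list held 7 higher DEGs without R-Scm 12 h replicate 3 and 6 with the 6 libraries fitted alone.

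Neighbouring programs of fibroblasts held from 1 to 3 DEGs each. Among these lists the share was largest in the retinoid list, at 33.3%, where 2.74% of all genes tested were DEGs. Of 22 matrix genes, Tnc rose and Loxl2 fell. Tnc, the glycoprotein tenascin C, was at 78.6, 72.1 and 74.0 CPM in Rcm and 167, 174 and 217 CPM in R-Scm 12 h (log2 fold change 1.31 ± 0.17 (SE), adjusted p = 0.000326). Loxl2, a cross-linking oxidase, went from 107, 103 and 99.7 CPM to 51.9, 56.7 and 67.3 CPM (log2 fold change -0.82 ± 0.17 (SE), adjusted p = 0.00983). Of 22 serum-response genes under SRF and YAP, Ccn1 rose by 0.87 and Mylk, the myosin light chain kinase, fell by 1.48 on the log2 scale. Klf2 was the DEG among 28 immediate early and feedback genes, at 11.8, 10.5 and 16.5 CPM in Rcm and 31.4, 25.0 and 38.6 CPM in R-Scm 12 h (log2 fold change 1.28 ± 0.20 (SE), adjusted p = 0.00146). Without R-Scm 12 h replicate 3 that list held 1 higher and 1 lower DEG. In the Wnt list, Notum and Sfrp2 rose and Dkk3 fell among 18 genes, and each of these 3 calls was lost when single libraries were left out, with 0 or 1 DEG left in the list whichever library it was. Of 9 retinoid-responsive genes, Stra6, a transporter of retinol, went from 3.80, 4.46 and 3.81 CPM to 1.59, 1.08 and 0.429 CPM (log2 fold change -1.94 ± 0.37 (SE), adjusted p = 0.00577), Dhrs3 fell by 1.13 and Cyp26b1 rose by 0.66 on the log2 scale. The call of Cyp26b1 was lost in 9 of 16 alternatives, among them 5 of the 6 that left out 1 library.

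Interferon-stimulated genes mostly had positive log2 fold changes, with few calls. Of 40 genes, 4 rose and 0 fell, 35 log2 fold changes were positive, and the median was 0.51. Cxcl10, a chemokine that interferons induce, was at 22.8, 25.8 and 23.2 CPM in Rcm and 55.7, 62.5 and 68.9 CPM in R-Scm 12 h (log2 fold change 1.38 ± 0.17 (SE), adjusted p = 0.000213). Oasl1, of the oligoadenylate synthetase family, went from 0.748, 1.60 and 1.02 CPM to 4.49, 3.60 and 3.62 CPM (log2 fold change 1.80 ± 0.36 (SE), adjusted p = 0.00702). Gbp2 and Zbp1 rose by 1.07 and 1.14 on the log2 scale, and their calls were lost in 5 and 4 of the 6 fits that left out 1 library. Both were lost without R-Scm 12 h replicate 3, which left 2 DEGs in the list. The count was also 2 without R-Scm 12 h replicate 2 or Rcm replicate 1. It was 6 with the 6 libraries fitted alone and 14 with DESeq2 on them. Of 14 genes of MHC class I presentation, none was a DEG by edgeR or DESeq2, 2 had an unadjusted p under 0.05, and the groups overlapped in 12.

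Circadian clock genes fell in 5 of 17 members and rose in 1 (median log2 fold change -0.49). Tef (ENSMUSG00000022389, chromosome 15, 81802421 to 81826863), an output factor of the clock, was at 81.7, 78.3 and 84.9 CPM in Rcm and 33.6, 37.4 and 14.2 CPM in R-Scm 12 h, 2.87-fold lower (log2 fold change -1.52 ± 0.27 (SE), adjusted p = 0.00445). Per2, a repressor of the clock, went from 13.7, 11.8 and 16.0 CPM to 6.24, 7.72 and 3.68 CPM (log2 fold change -1.23 ± 0.25 (SE), adjusted p = 0.00804). Arntl, the activator with which PER proteins interfere, went the other way, from 26.1, 29.0 and 26.1 CPM to 40.9, 41.7 and 38.8 CPM (log2 fold change 0.58 ± 0.12 (SE), adjusted p = 0.00889). The value of Arntl lay at the fold threshold, and its call was lost without Rcm replicate 1 or 3 or R-Scm 12 h replicate 1 or 2. Tef and Per2 were lowest in R-Scm 12 h replicate 3. Ciart, Per1 and Cry2 were the other lower DEGs. Without R-Scm 12 h replicate 3 the list held 1 higher and 3 lower DEGs. It held 0 higher and 3 lower DEGs without Rcm replicate 1, 0 higher and 4 lower without Rcm replicate 3, and 1 of each with the 6 libraries fitted alone. The hour of the day at which cells were collected is not given in the sources used here, so the exchange and the clock phase cannot be told apart.

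Targets of p53 rose in 6 of 17 genes and fell in 0 (median log2 fold change 0.46). Ccng1, an early p53 target, was at 149, 151 and 118 CPM in Rcm and 220, 240 and 272 CPM in R-Scm 12 h (log2 fold change 0.81 ± 0.14 (SE), adjusted p = 0.00338). Mdm2, the ligase that degrades p53, went from 109, 108 and 101 CPM to 146, 156 and 209 CPM (log2 fold change 0.69 ± 0.12 (SE), adjusted p = 0.00265). Eda2r and Plk2 rose by 1.05 and 0.71 on the log2 scale. All 4 were highest in R-Scm 12 h replicate 3, and without it 2 members of the list were DEGs and the calls of Mdm2 and Plk2 were lost. The level of Trp53 itself was not a DEG (log2 fold change 0.10 ± 0.09 (SE), adjusted p = 0.617).

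In the remaining lists few genes or none were DEGs. Among 11 glucocorticoid-responsive genes, Sgk1 and Mt2 rose and Angptl4 and Per1 fell, and without R-Scm 12 h replicate 3 only Angptl4 was called. The list also held 1 DEG without Rcm replicate 1 or 3, and 2 without Rcm replicate 2. Mt2 was the 1 DEG of 5 metallothioneins and zinc transporters, and Egln3, an oxygen sensor, the 1 DEG of 26 genes of glycolysis and the hypoxia response (log2 fold changes 1.04 and 0.88). Neither was called without R-Scm 12 h replicate 3 or with the 6 libraries fitted alone, and Mt2 was not called without any 1 of the Rcm libraries either. With the 6 libraries alone, the lists of selenoproteins, matrix genes, serum-response genes, retinoid-responsive genes, glucocorticoid-responsive genes and p53 targets held 2, 5, 1, 1, 1 and 3 DEGs. None of 15 FOXO and insulin-sensitive genes, 8 genes of the IGF system, 22 replication genes and 20 mitosis genes was a DEG by edgeR, while 4, 3, 6 and 2 of them had an unadjusted p under 0.05. By DESeq2 on all 18 libraries, 1 gene of the IGF system was a DEG and none of the others. Over all 15381 genes tested, 2706 had an unadjusted p under 0.05 by edgeR. The plot of the gene lists sets all 34 of them side by side.

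**Figure D3:**
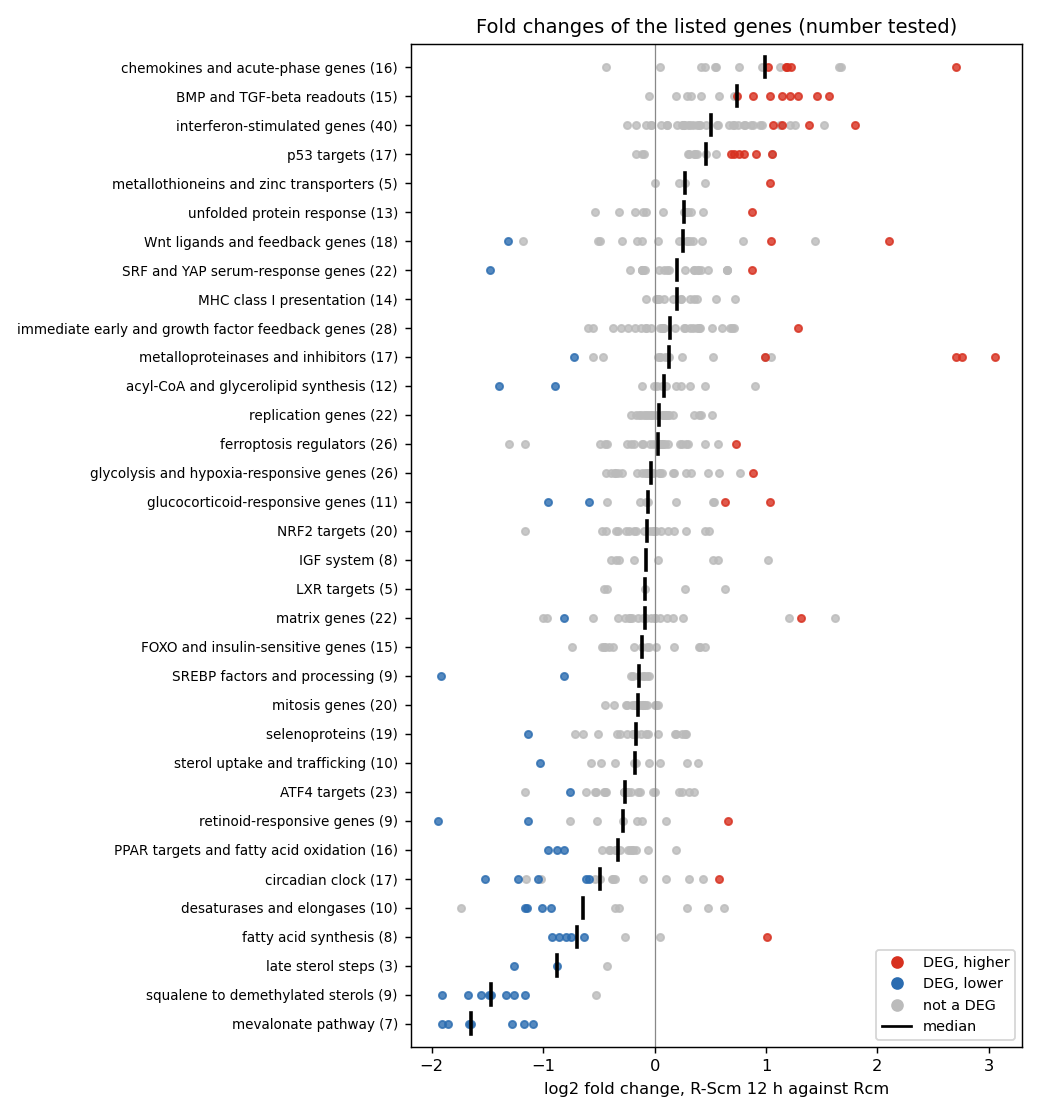
Log2 fold change between R-Scm 12 h and Rcm of every tested gene of the 34 lists, with 1 row for each list, the number tested in brackets, higher DEGs in red, lower DEGs in blue, other genes in grey and the median of the list as a black bar. The 3 sterol lists lie lowest, with 17 of 19 genes in blue, and the chemokine list and the BMP and TGF-beta list lie highest.

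Several of the largest rises outside the lists began at 0 to 3 counts in every Rcm library, so their fitted fold changes depend on the prior count. The intervals given for them pool the libraries of each group and cover counting error only. These genes were picked for their large rises in the same counts, so the intervals are no test of a rise. Nlrp2, of the NLR family, had 2, 0 and 0 counts in Rcm and 18, 30 and 87 counts in R-Scm 12 h, a ratio of 63.4 with an exact 95% interval of 17.2 to 529. Smoc2, a secreted calcium-binding matrix protein, had 2, 2 and 0 counts in Rcm and 23, 28 and 38 counts in R-Scm 12 h, a ratio of 20.9 with an exact 95% interval of 7.88 to 78.4. The highest counts of both were in replicate 3, and the call of Nlrp2 was lost with the 6 libraries fitted alone. U90926 and Gjb2, a connexin, rose from the same floor with ratios of 23.5 (7.73 to 116) and 15.5 (5.78 to 58.6). The call of U90926 was lost in 2 of the 6 fits that left out 1 library, and that of Gjb2 in 4. Plxna4, a semaphorin co-receptor, was above the floor, at 0.624, 0.466 and 0.660 CPM in Rcm and 3.01, 4.17 and 4.23 CPM in R-Scm 12 h (log2 fold change 2.68 ± 0.34 (SE), adjusted p = 0.00027). Itga2, the collagen-binding integrin subunit, went from 0.499, 0.266 and 0.305 CPM to 1.86, 1.23 and 3.74 CPM (log2 fold change 2.65 ± 0.50 (SE), adjusted p = 0.00486), and the RNA B130046B21Rik, which lies antisense to exons of Ddn and Prkag1, had a log2 fold change of 2.90. The call of B130046B21Rik was lost when any of 5 of the 6 libraries was left out. Among the falls, Islr, which shares exons with Islr2, was at 2.43, 3.13 and 3.30 CPM in Rcm and 0.547, 0.720 and 0.736 CPM in R-Scm 12 h (log2 fold change -2.14 ± 0.47 (SE), adjusted p = 0.0135). Gm12758 and Acvr2b, a receptor of activins, each had a log2 fold change of -1.88. Their calls were lost in 4 and 3 of the 6 fits that left out 1 library, and both were lost without R-Scm 12 h replicate 3.

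Some of the sterol genes stood higher at 24 h of the same exchange than at 12 h. R-Scm 24 h is set against R-Scm 12 h here, with which it shares no library. Of all genes, 119 were DEGs between them (0.774%), 51 higher (0.332%) and 68 lower (0.442%) at 24 h. Of the 19 sterol genes, 6 were higher at 24 h and 0 were lower. Fdps was at 280, 161 and 163 CPM in R-Scm 24 h (log2 fold change against 12 h 0.96 ± 0.15 (SE), adjusted p = 0.00659), and Insig1 at 138, 67.9 and 82.8 CPM (log2 fold change 1.05 ± 0.19 (SE), adjusted p = 0.013). Replicate 1 of R-Scm 24 h was the highest of its group in both. Of the 19, 3 were higher when that library or any 1 of the R-Scm 12 h libraries was left out, and 0 with the 6 libraries fitted alone. Insig1 belongs to the list of SREBP factors and processing, which held 2 higher DEGs at 24 h. Dropping replicate 3 of R-Scm 12 h left 0 DEGs in that list, as did the fit of the 6 libraries, so the call of Insig1 was lost in both. Against Rcm, which serves as the control of both times, the 19 genes had a median log2 fold change of -1.33 at 12 h and -0.74 at 24 h. Mmp3 and Mmp13 were lower at 24 h, with log2 fold changes of -2.18 and -2.43, and their list held 2 lower DEGs. It held 1 without R-Scm 12 h replicate 3 or R-Scm 24 h replicate 3, 4 without R-Scm 24 h replicate 1 and 0 with the 6 libraries alone. Of 40 interferon-stimulated genes, 11 were lower at 24 h. The count was 38 without R-Scm 24 h replicate 1, 4 and 6 on leaving out replicate 3 or 2 of R-Scm 12 h, 5 and 3 on leaving out replicate 2 or 3 of R-Scm 24 h, and 1 with the 6 libraries alone. Of the BMP and TGF-beta readouts, 0 of 15 were DEGs between the times by edgeR or DESeq2 and 2 had an unadjusted p under 0.05. Over all 15381 genes tested, 2092 had an unadjusted p under 0.05 between the times by edgeR.

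Set against cells kept in Scm, R-Scm 12 h was not at the level of the medium it had entered. There were 676 DEGs between these groups (4.40%), 477 higher (3.10%) and 199 lower (1.29%) in R-Scm 12 h, and 353 without R-Scm 12 h replicate 3. Of the 19 sterol genes, 10 were lower in R-Scm 12 h than in Scm and 0 were higher, and 6 were lower without R-Scm 12 h replicate 3 or Scm replicate 2. Insig1 was at 110, 110 and 112 CPM in Scm, below Rcm and above R-Scm 12 h (log2 fold change of R-Scm 12 h against Scm -1.25 ± 0.19 (SE), adjusted p = 0.000957). Nsdhl was at 58.4, 58.9 and 64.5 CPM in Scm (log2 fold change -0.93 ± 0.15 (SE), adjusted p = 0.00108). Interferon-stimulated genes lay the other way, with 40 of 40 higher in R-Scm 12 h than in Scm (median log2 fold change 3.40), and 38 without replicate 3. Against Rcm, the medium these cells had left, their median log2 fold change was 0.51. The contrast with Scm thus also holds the difference between cells kept in Rcm and in Scm. No difference was called for Cpt1a, at 64.3, 61.8 and 67.3 CPM in Scm (log2 fold change 0.20 ± 0.14 (SE), adjusted p = 0.406). The plot of selected genes over all libraries shows these levels.

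**Figure D4:**
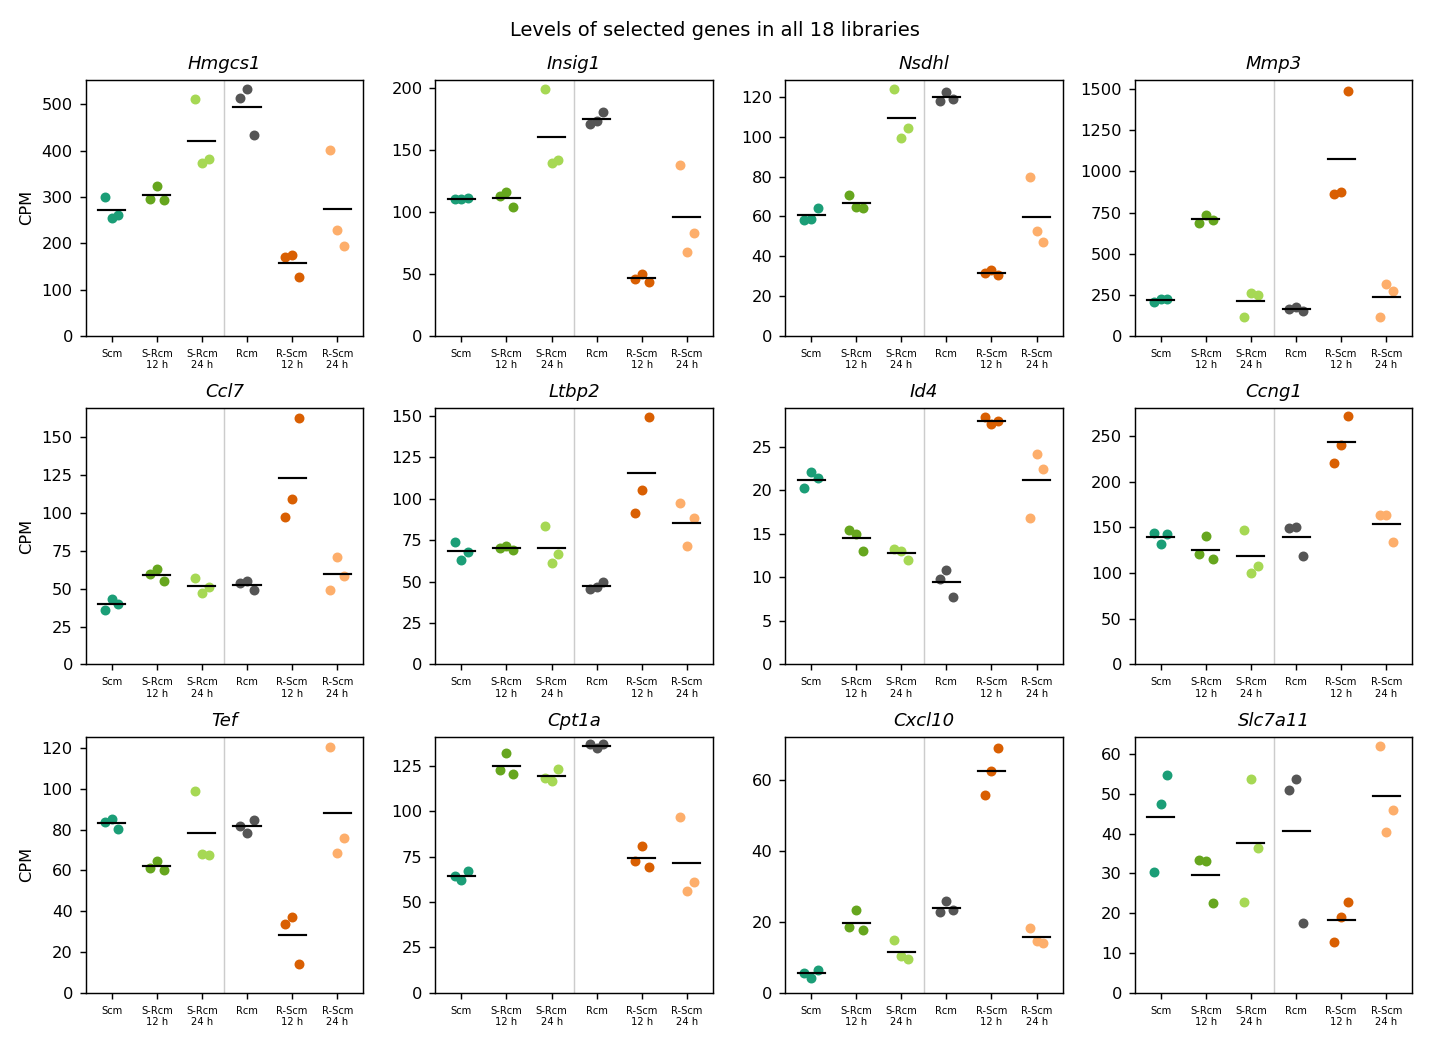
CPM of 12 genes in all 18 libraries, with each point 1 library, each bar the mean of 3 and the vertical line parting cells that began in Scm (left) from cells that began in Rcm (right). Hmgcs1, Insig1 and Nsdhl were lower in every R-Scm 12 h library than in every Scm and Rcm library, and Mmp3 was higher at 12 h than at 0 h or 24 h after either exchange.

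The opposite exchange gives the same 12 h in culture after a change of medium, in cells that shared no library with the comparison above. The difference between both log2 fold changes, that of R-Scm 12 h against Rcm less that of S-Rcm 12 h against Scm, passed for 312 genes (2.03%), where S-Rcm 12 h against Scm held 132 DEGs (0.858%). There were 138 with a more positive change (0.897%) and 174 with a more negative one (1.13%) in the Rcm to Scm exchange. Of the 19 sterol genes, 16 had a more negative change and 0 a more positive one, and 14 without R-Scm 12 h replicate 3. Their median log2 fold change was -1.33 after the exchange from Rcm to Scm and 0.10 after the exchange from Scm to Rcm. Of the BMP and TGF-beta readouts, 8 of 15 had a more positive change (medians 0.74 and -0.34). Of the PPAR and oxidation genes, 7 of 16 had a more negative one, among them Cpt1a (log2 fold changes -0.88 and 0.95, difference -1.83 ± 0.20 (SE), adjusted p = 0.000155), and 3 to 5 had one when 1 library was left out. The difference passed for 0 of 40 interferon-stimulated genes by edgeR, 4 of which had an unadjusted p under 0.05, and for 4 by edgeR and 5 by DESeq2 on the 4 groups alone. Their medians were 0.51 and 1.15. Over all 15381 genes tested, 2262 had an unadjusted p under 0.05 for the difference by edgeR. Mmp3, Mmp13 and Hspa5 had log2 fold changes of 2.71, 3.05 and 0.88 in this exchange and of 1.70, 2.44 and 1.09 in the opposite one, and their differences did not pass (adjusted p = 0.337, 0.748 and 0.748), which does not show that they were alike. The plot of both exchanges shows the lists by gene.

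**Figure D5:**
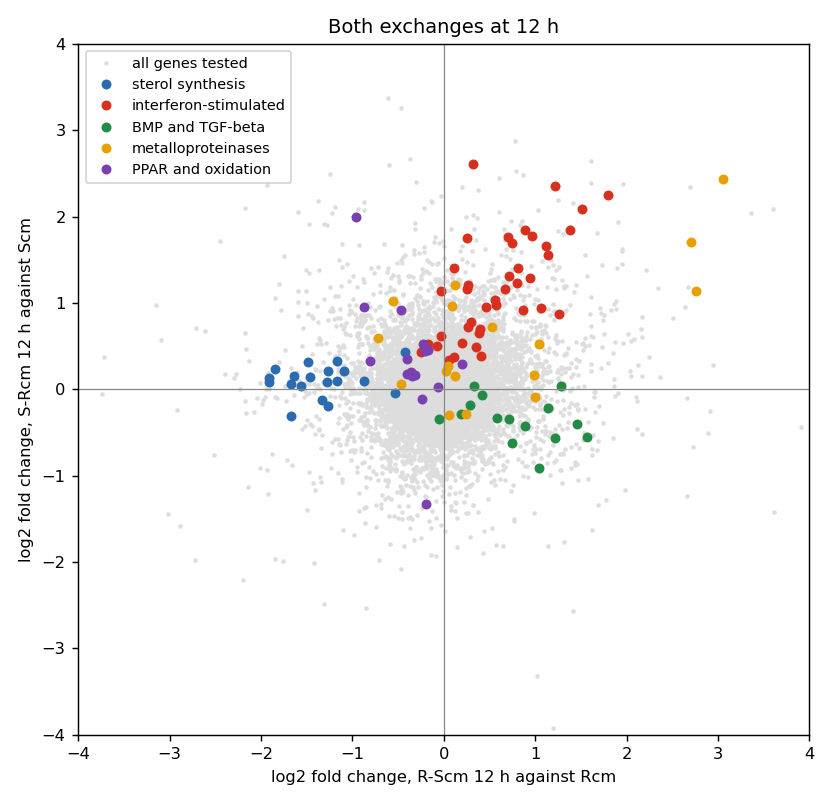
Log2 fold change of each gene 12 h after the exchange from Rcm to Scm (horizontal axis) against that 12 h after the exchange from Scm to Rcm (vertical axis), with all tested genes in grey and 5 groups of listed genes in colour; 32 of 15381 genes lie outside the axes. Sterol synthesis genes (blue) spread along the negative horizontal axis near 0 on the vertical one, while interferon-stimulated genes (red) lie mostly above 0 on both.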

How the data were processed

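RNA of mouse embryonic fibroblasts was sequenced by the authors from paired-end Illumina mRNA-seq libraries and aligned with HISAT2 to GRCm38, the build that the labels also name. The deposited values are raw counts of reads per gene for 55487 genes in 18 libraries. The counting program, strand setting and treatment of reads with several matches are not given in the sources used here. Replicates are named as in the titles, which number R-Scm 12 h from 1 to 3, while the names of its count columns carry partly different numbers.

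Counts of all 18 libraries were fitted with the quasi-likelihood test of edgeR 4.0.16 (R 4.3.3) with TMM scaling and 1 coefficient a group. The low-count filter of edgeR kept 15381 genes and removed 40106. P-values were adjusted over all genes tested by Benjamini-Hochberg, and DEGs were called beyond a log2 fold change of 0.58 in either direction at an adjusted p below 0.05, the thresholds of the study, which used DESeq2. SEs were taken as the absolute log2 fold change over the square root of F. CPM are counts over TMM-scaled totals. The test was checked on simulated counts of 15165 genes, in which 4.81% of calls were false. The simulated counts varied independently between genes, so a deviation of a whole library was not covered. Totals of 14534906 to 20313715 counts leave genes of a few counts imprecise, and intervals of counts cover counting error only.

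The naming rule took 12 DEGs per direction, those of the largest fold change that reached a mean of 1 CPM in the higher group and had no overlap between groups, the listed sterol genes, Srebf1, Srebf2, Insig1, Scd1, Fasn, Gpx4, Slc7a11 and Apoh, and up to 4 DEGs of every other list by adjusted p. The members and the 34 lists were chosen with earlier results of these data known, and some genes, which are also left out of the list counts, are not reported here. Other list members named in the text, among them Scd2, Scap, Acsl4, Id1, Id3 and Trp53, and the markers, were chosen after their values were seen. Alternatives were other thresholds, RLE and upper-quartile scaling, other filters, the replicate number as a block, the compared groups alone, DESeq2 1.42.0 and each library left out in turn. Promoter windows of 250 bases and gene copies (at least 95% identity over 150 bases, blastn 2.17.0) came from RefSeq and GRCm38 annotation.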

Additional observations from a re-analysis of the deposited data

Results flagged for a closer look

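For 53 of the 97 named genes the log2 fold change after the exchange from Rcm to Scm differed from that after the exchange from Scm to Rcm, both at 12 h, in a test of the difference itself (edgeR, adjusted p from 1.5e-05 to 0.0486 and SE from 0.121 to 1.58). Most of the 97 were named as DEGs of R-Scm 12 h against Rcm, a comparison that is part of this difference, so they were favoured to pass. Among all genes tested the difference passed for 2.03%. Of the 53 genes, the difference was positive for 16 and negative for 37. It is given in brackets as the log2 fold change of R-Scm 12 h against Rcm less that of S-Rcm 12 h against Scm.

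Among enzymes and factors of sterol metabolism the differences were those of Fdps (-2.0), Nsdhl (-2.05), Mvd (-2.09), Insig1 (-1.92), Fdft1 (-1.81), Hmgcs1 (-1.80), Idi1 (-1.73), Cyp51 (-1.6), Tm7sf2 (-1.6), Hsd17b7 (-1.5), Acat2 (-1.37), Lss (-1.37), Mvk (-1.31), Pmvk (-1.27), Msmo1 (-1.21), Sqle (-1.08), Stard4 (-1.06), Sc5d (-0.98) and Srebf2 (-0.84). The copies of Fdps that share its reads followed, Gm7979 (-2.12) and Gm5873 (-2.04). In fatty acid and lipid metabolism they were those of Angptl4 (-2.96), Cpt1a (-1.83), Fads2 (-1.44), Elovl6 (-1.36), Slc25a1 (-1.24), Scd1 (-1.17), Fads1 (-1.16), Ucp2 (-1.14), Acsl3 (-0.95), Acly (-0.91) and Mid1ip1 (1.5). Angptl4 had a log2 fold change of -0.96 in the exchange to Scm and of 2.0 in the exchange to Rcm, and Cpt1a of -0.88 and 0.95.

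Among retinoid-responsive genes the differences were those of Stra6 (-4.30) and Dhrs3 (-2.06), and Stra6 had log2 fold changes of -1.94 and 2.36 in the exchanges to Scm and to Rcm. Others with a negative difference were Mylk (-2.35), Loxl2 (-1.68), Selenow (-1.62) and Ddit4 (-1.10). Positive differences were found in readouts of BMP and TGF-beta signalling, Id4 (2.11), Atoh8 (1.78), Id2 (1.36) and Ltbp2 (1.24), with log2 fold changes of Id4 of 1.56 and -0.55. They were also found for Nlrp2 (8.53), Smoc2 (4.41), Cxcl12 (1.29), Tnc (1.24), Eda2r (1.21), Tfrc (1.13), Klf2 (1.11), Ccng1 (0.96), Sgk1 (0.87), Timp1 (0.82) and Mdm2 (0.78). The values of Nlrp2 and Smoc2 rest on 0 to 2 counts in each Rcm library and depend on the prior count.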

How the results depend on the processing

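The fall in the 19 sterol genes kept its direction under all 16 alternatives, with 16 to 18 lower DEGs and none higher. The 421 DEGs between R-Scm 12 h and Rcm became 227 at an adjusted p under 0.01, 644 without the fold threshold and 237 with edgeR on the 6 libraries alone. The 119 DEGs between R-Scm 24 h and R-Scm 12 h became 42 at an adjusted p under 0.01, 2 with edgeR on the 6 libraries alone and 234 with DESeq2 on all 18. The 676 DEGs against Scm became 322 at an adjusted p under 0.01 and 1148 without the fold threshold, and the 312 genes of the difference between exchanges became 122 at an adjusted p under 0.01 and 648 with DESeq2 on the 4 groups alone. The cause of these shifts was not tested beyond the thresholds and libraries that each setting changes.

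Leaving out 1 library at a time gave 275 to 420 DEGs between R-Scm 12 h and Rcm, 57 to 309 between the times, 353 to 770 against Scm and 176 to 289 for the difference. The lowest first count came without R-Scm 12 h replicate 3. Between the times, leaving out R-Scm 24 h replicate 1 gave 309, R-Scm 24 h replicate 3 gave 57, and R-Scm 12 h replicate 3 gave 71. Against Scm, 353 was reached without R-Scm 12 h replicate 3 and 390, 422 and 437 without Scm replicates 1, 2 and 3, and the difference held 176, 187 and 186 genes without these and 197 without S-Rcm 12 h replicate 1.

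Samples with the same title number in both groups did not deviate together (correlations of -0.196, -0.00807 and -0.172 over genes). The fit with the replicate number as a block gave 397 DEGs between R-Scm 12 h and Rcm, 119 between the times, 652 against Scm and 289 for the difference. The names of the count columns number R-Scm 12 h partly otherwise than the titles. Neither check can therefore show that the libraries were unpaired. Of the 97 named genes, 59 kept their side of the thresholds under every alternative and none changed sign past them. With 3 libraries a group, 79% of simulated 2-fold changes and 99% of 4-fold changes were called, so smaller changes can be missed. The changed genes were drawn from the better expressed ones only, so these shares do not cover genes of a few counts. The simulated counts also held no deviation of a whole library, such as that of replicate 3, so the shares may be too favourable for these data. Genes under the count filter, such as Apoh, could not be tested at this depth.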

Other observations

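Of the 421 DEGs between R-Scm 12 h and Rcm, 214 (50.8%) had the same sign 12 h after the opposite exchange, with which they share no library, against 53.7% of all genes tested. The share was 59.7% (139 of 233) for the higher DEGs and 39.9% (75 of 188) for the lower ones. The opposite exchange held 132 DEGs, 0.858% of all genes tested, and 33 of them were among the 421. Of the higher DEGs, 13 were called there with the same sign and 6 with the opposite sign, and of the lower DEGs 5 and 9. Across all 15381 genes, which are not independent replicates, the log2 fold changes of both exchanges had a Pearson r of 0.0993 and a Spearman rho of 0.0829.

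Targets of ATF4, the factor of the amino acid and stress response, held 1 DEG against Rcm. Compared with cells kept in Scm, 8 of 23 were lower in R-Scm 12 h, 10 without R-Scm 12 h replicate 3, and 3, 2 and 3 on leaving out R-Scm 12 h replicate 1, its replicate 2 or Scm replicate 2. At 24 h, 6 of the 23 were higher than at 12 h, 11 without R-Scm 24 h replicate 1, 9 without R-Scm 12 h replicate 3, 1 to 3 when another library was left out and 0 with the 6 libraries fitted alone. Metalloproteinases and inhibitors were higher in R-Scm 12 h than in Scm for 7 of 17 genes, for 2 without R-Scm 12 h replicate 3, and for 2 or 3 when 1 of the Scm libraries was left out. Genes of MHC class I presentation were higher than in Scm for 11 of 14, for 7 without R-Scm 12 h replicate 3 and for 6 without Scm replicate 1 or 3. Against Rcm none of the 14 was a DEG, and their median log2 fold change was 0.20.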
